A study of Mus musculus with 8 samples.

Results

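The genes described are the subunits, assembly factors and activators of the proteasome that the array names Psma, Psmb, Psmc, Psmd or Psme with a number. The pattern matched 42 genes, and 64 probes carried their names out of 41174 non-control probes on the array. All 42 were among the 14002 genes with a symbol that could be tested, because each had a probe clearly above background on all 8 arrays, and none was saturated on any array. Of the 42 genes, 17 had several probes, and each gene is represented by its brightest probe, chosen over all 8 arrays without regard to group. The pattern did not use any difference between groups. The testis- and thymus-type subunit genes are covered in part: Psma8 is matched, while the thymus subunit gene Psmb11 is named on this array by an older clone name, so it falls outside the pattern, and its probes rose above background on at most 1 array.

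The series compared heart RNA of male mice aged 12 weeks, 4 wild-type (WT) and 4 overexpressing PKR2, with 1 mouse on each 1-colour array. PKR2 is taken to be the receptor for prokineticins that Prokr2 encodes, which couples to G proteins. The promoter and the species of the transgene are not given in the sources used here. The Prokr2 probe rose clear of background on 0 of 8 arrays and so gives no check of the labels.

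The proteasome is the protease that degrades proteins marked with ubiquitin. Its 20S core is a barrel of stacked rings, with alpha subunits outside and beta subunits inside, and only Psmb5, Psmb6 and Psmb7 of the standard beta subunits cut peptides, with chymotrypsin-like, caspase-like and trypsin-like activity respectively. Interferon gamma induces Psmb8, Psmb9 and Psmb10, which take the places of Psmb5, Psmb6 and Psmb7 in newly built cores to form the immunoproteasome, and also the PA28 activator (Psme1 and Psme2). The 19S cap binds ubiquitin chains, removes them and unfolds the substrate with a ring of ATPases, and when proteasome activity is lost the transcription factor Nfe2l1 raises the genes of the standard particle together. In heart muscle the system removes worn sarcomere proteins.

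The promoters of 2 standard catalytic genes and of the 2 immunoproteasome genes that neighbour each other in the major histocompatibility complex are shown, since these are the genes set against each other below. On chromosome 17 the order is Psmb9, Tap1, Psmb8 and Tap2, with no other gene of the RefSeq table between them. Each window runs from 250 bases before to 50 bases after the annotated start (RefSeq, GRCm38.p6), 5′ to 3′ on the gene's own strand. Capitals mark matches on either strand to 3 motifs: TTCNNNGAA, the gamma-activated site found in genes that interferon gamma induces, GAAANNGAA, most of the core of the interferon-stimulated response element, and TGACNNNGC, the antioxidant response element bound by Nfe2l1 and Nfe2l2 with small Maf proteins. The windows are chr14:54617946-54618245 (minus strand), chr11:70525107-70525406 (plus strand), chr17:34197945-34198244 (plus strand) and chr17:34187281-34187580 (minus strand).
Psmb5: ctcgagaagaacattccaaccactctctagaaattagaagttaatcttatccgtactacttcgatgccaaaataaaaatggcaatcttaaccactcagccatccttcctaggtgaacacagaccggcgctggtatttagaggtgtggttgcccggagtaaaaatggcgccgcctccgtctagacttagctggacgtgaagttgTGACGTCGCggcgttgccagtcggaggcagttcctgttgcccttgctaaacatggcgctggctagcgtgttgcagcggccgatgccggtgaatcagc
Psmb6: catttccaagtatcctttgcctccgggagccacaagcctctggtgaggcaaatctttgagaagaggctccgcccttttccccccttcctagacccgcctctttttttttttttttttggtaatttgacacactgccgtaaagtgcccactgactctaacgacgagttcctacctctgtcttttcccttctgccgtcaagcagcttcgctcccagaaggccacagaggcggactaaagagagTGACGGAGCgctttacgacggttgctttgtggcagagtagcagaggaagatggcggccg
Psmb8: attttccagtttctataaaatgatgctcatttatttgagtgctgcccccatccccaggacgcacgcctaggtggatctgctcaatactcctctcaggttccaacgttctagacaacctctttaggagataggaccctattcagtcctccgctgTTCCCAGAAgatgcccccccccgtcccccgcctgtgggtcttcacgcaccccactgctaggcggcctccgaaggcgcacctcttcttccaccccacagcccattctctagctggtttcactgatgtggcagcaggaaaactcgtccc
Psmb9: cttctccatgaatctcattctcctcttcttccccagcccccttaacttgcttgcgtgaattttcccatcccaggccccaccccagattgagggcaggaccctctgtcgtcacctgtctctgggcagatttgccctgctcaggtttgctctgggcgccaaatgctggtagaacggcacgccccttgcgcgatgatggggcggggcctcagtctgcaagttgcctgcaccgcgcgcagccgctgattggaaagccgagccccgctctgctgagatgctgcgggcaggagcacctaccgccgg
Psmb5 held an antioxidant response element match starting at position -47 from its start site, and Psmb6 held another at -9. Psmb8 held a gamma-activated site match at -97, and the Psmb9 window held none of the 3 motifs. Of the 42 genes, 35 had a window in the RefSeq promoter table. A gene was counted if any of its windows matched, and Psme2, for example, has 2. The share of all promoters counts each window, so the shares set side by side differ in unit. The antioxidant motif occurred in 6 of the 35 (17.1%, against 12.4% of all 32851 promoters): Psmb5, Psmb6, Psmc6, Psmd9, Psmd12 and Psme4. The response element core also occurred in 6 (17.1%, against 8.56%): Psmb3, Psmb4, Psmc2, Psmd4, Psmd9 and Psme1. The gamma-activated site occurred in 2, Psmb8 and Psmd2 (5.71%, against 8.30%). Matches to different motifs did not overlap in these windows. A match is a string of letters and not a measured binding site.

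Levels are given in log2 units above or below the 75th percentile of an array's signal, with n = 4 arrays per group, and differences are PKR2 minus WT with limma's standard error (SE). A level of a gene depends on its probe, so levels are compared between arrays and not between genes. Across the series 48.3% to 67.1% of spots were well above background and the 75th percentile of processed signal ran from 40.9 (WT 2) to 770 (PKR2 1), so dim spots rest on less signal on some arrays. The number of arrays limits the precision: the half-width of a 95% interval was 0.44 in the median member and ran from 0.29 to 0.77. Adipocyte markers differed in mean level, with opposite directions within slides 5 and 6. All 10 tested genes of a list of 12 had a lower mean with PKR2 (median -1.95). In limma 8 of the 10 were lower at an unadjusted p under 0.05 and 0 at an adjusted one, where 2.42% of all features passed unadjusted in either direction. Their mean log2 level relative to each gene's own mean ran from -0.10 to 1.23 in WT and from -2.09 to 0.40 in PKR2 hearts. PKR2 1 and PKR2 2 were lowest, while PKR2 3 (0.40) and PKR2 4 (0.27) lay above WT 3 (-0.10). Within slide 5, PKR2 3 lay above WT 3 in all 10 tested genes. Within slide 6, PKR2 4 lay below WT 4 in all 10. Adrb3 was above background on 0 arrays and Lep on 2.

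No proteasome gene passed the test between the groups, and the measured differences were small. Of the 42 genes, 0 passed limma's adjusted p of 0.05, as did 0% of all 15660 features tested. At an unadjusted p under 0.05 the count was also 0 of 42, where 2.42% of all features passed. The 4 WT and 4 PKR2 arrays overlapped in every one of the 42 genes, whereas 0.747% of all features lay wholly higher and 0.862% wholly lower in PKR2 hearts. Differences ran from -0.33 (Psmc5) to 0.20 (Psmb1), and 22 of the 42 were smaller than 0.1 in size. The median size of difference was 0.09 in the 42 genes and 0.12 over all features. All 42 intervals included 0 and all 42 lay within 1 of it, while only 14 lay within 0.5. That limit depended on the background correction and on single arrays. With normexp 22 of the 42 intervals lay within 1 of 0 and the highest bound was 1.59. With normexp at a common level, where all arrays are first brought to the same signal, 39 did. Without WT 2, WT 3, PKR2 1, PKR2 3 or PKR2 4 the count was also 39, and without PKR2 2 it was 42.

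**Figure D1:**
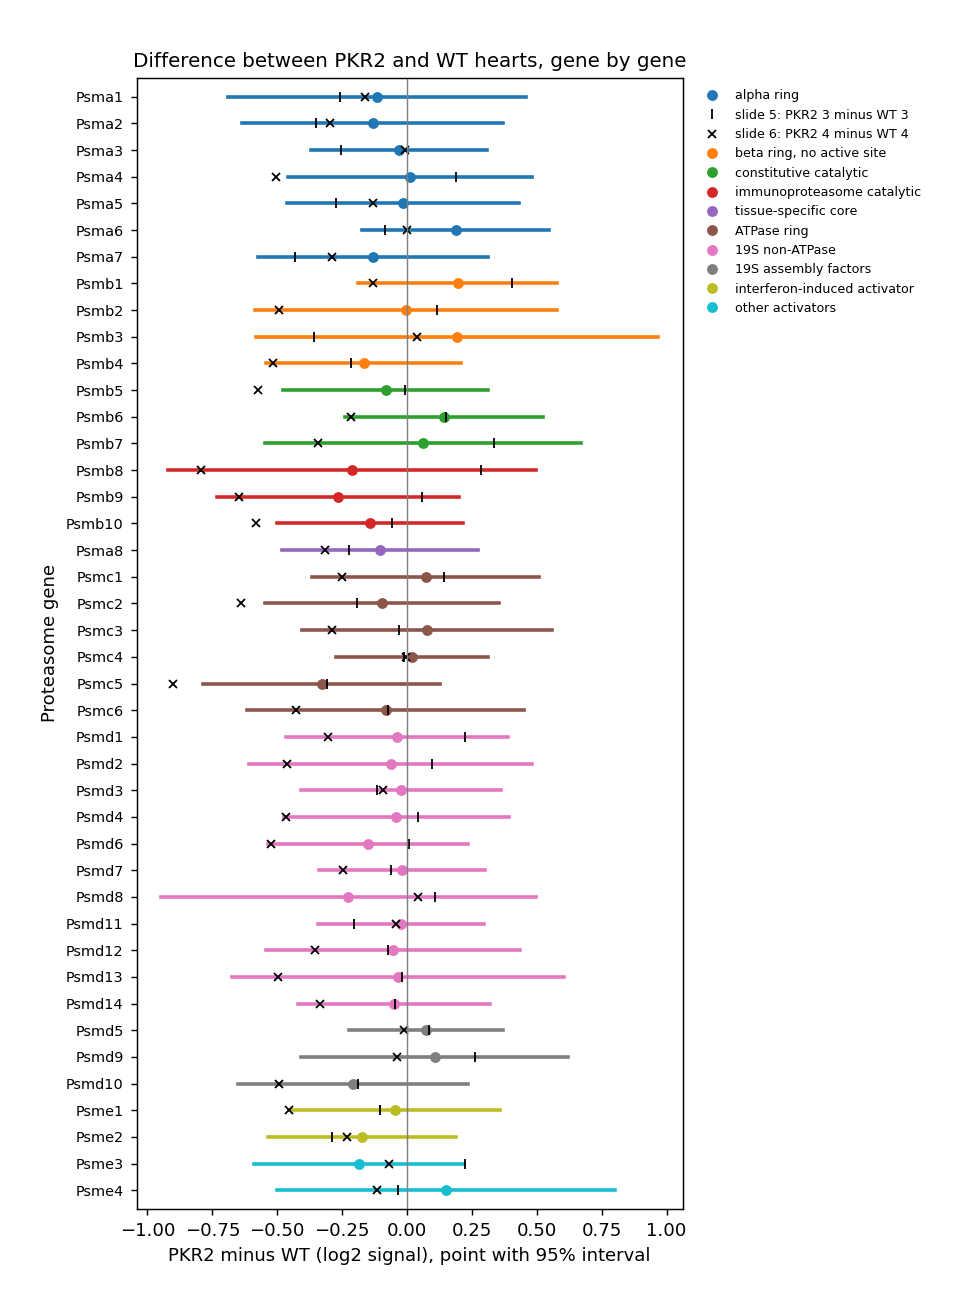
Difference between PKR2 and WT hearts for each of the 42 genes in log2 signal (x axis), ordered and coloured by role, as a point with its 95% interval (4 against 4 arrays); bars and crosses mark the differences within slides 5 and 6, which each held 1 array of each group. All 42 intervals include 0, and the crosses of slide 6 lie below 0 for 40 of the 42 genes.

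By sign, 30 genes were lower and 12 higher in PKR2 hearts. The median was -0.04, against 0.0015 over all features. This split turned with the background correction. With normexp in place of the scanner's own background subtraction, 5 of the 42 were lower and the median was 0.29. With normexp after all arrays were brought to a common level, 9 were lower and the median was 0.11. With quantile normalization 21 were lower, as also without WT 4. More than 30 were lower with median scaling, with slide as a fixed or random block, without WT 2, and without WT 1 and PKR2 1 together. No direction is therefore given for the group as a whole.

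The alpha subunits, which form the outer rings and gate the core, gave 2 genes higher and 5 lower, with a median difference of -0.03, and 7 higher with normexp. Psma6 was 4.39 ± 0.25 in WT and 4.58 ± 0.07 in PKR2 hearts, so it differed by 0.19 (SE 0.16). Its WT values were 4.06, 4.36, 4.63 and 4.52 and its PKR2 values 4.59, 4.68, 4.55 and 4.52, so WT 1 was lowest and the groups overlapped. The Psma6 difference was 0.70 with normexp (unadjusted p = 0.0661 in limma) and 0.37 with the authors' deposited values (unadjusted p = 0.0258). Psma2 (-0.13), Psma7 (-0.13) and Psma1 (-0.12) were next in size, and Psma3, Psma4 and Psma5 differed by -0.03, 0.01 and -0.02. Psma1, Psma2, Psma3, Psma5 and Psma7 shared a pattern across arrays: WT 1 was the lowest WT array and PKR2 1 the lowest PKR2 array in each of the 5.

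The beta subunits without an active site, which complete the inner rings, split evenly. Psmb1 was 3.89 ± 0.25 in WT and 4.08 ± 0.15 in PKR2 hearts, so it differed by 0.20 (SE 0.17), and Psmb4 was 5.35 ± 0.23 and 5.18 ± 0.17, so it differed by -0.17 (SE 0.17). Psmb2 differed by -0.0050. Psmb3 had the widest spread of the 42 genes. It measured 3.94, 5.57, 5.52 and 4.98 on the WT arrays and 4.99, 5.61, 5.16 and 5.02 on the PKR2 arrays, a difference of 0.19 (SE 0.34). WT 1 lay more than 1 below every other array, the other arrays of the groups overlapped, and without WT 1 the difference was -0.16.

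The standard catalytic subunits differed by 0.14 or less in size, and by more with normexp, where the Psmb5 difference was 0.35, the Psmb6 difference 0.52 and the Psmb7 difference 0.28, none of them past an unadjusted p of 0.05. Psmb5 (probe on chromosome 14, 53568529 to 53568588, mm8) measured 4.03, 3.93, 3.75 and 4.14 in WT and 4.10, 4.11, 3.74 and 3.57 in PKR2 hearts, for a difference of -0.08 (SE 0.18, 95% interval -0.48 to 0.31). PKR2 4 was lowest and WT 4 highest, and the other arrays were mixed. Psmb6 (chromosome 11, 70343707 to 70343766, mm8) measured 5.22, 4.99, 4.91 and 5.27 in WT and 5.56, 5.29, 5.06 and 5.05 in PKR2 hearts, for a difference of 0.14 (SE 0.17, interval -0.24 to 0.53). PKR2 1 stood highest, and the groups overlapped. Psmb7 (chromosome 2, 38435455 to 38455874, mm8, positions with introns between them) measured 2.90, 2.11, 2.14 and 3.03 in WT and 3.06, 2.21, 2.47 and 2.68 in PKR2 hearts, for a difference of 0.06 (SE 0.27, interval -0.55 to 0.67). Here WT 1, WT 4 and PKR2 1 were high and WT 2, WT 3 and PKR2 2 low, so the spread within a group was larger than that between the groups.

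The immunoproteasome subunits were each lower in PKR2 hearts, and none passed a threshold. Psmb8 (chromosome 17, 33811095 to 33811419, mm8) measured 2.30, 1.16, 1.21 and 2.30 on the WT arrays and 1.99, 1.13, 1.50 and 1.50 on the PKR2 arrays. WT 1, WT 4 and PKR2 1 formed the high end and WT 2, WT 3 and PKR2 2 the low end, and the groups overlapped, with WT 1 and WT 4 above every PKR2 array. Its difference was -0.21 (SE 0.32, interval -0.92 to 0.50, unadjusted p = 0.520 and adjusted p = 1 in limma), and its second probe gave -0.27. Psmb9 (chromosome 17, 33792517 to 33792576, mm8) measured 1.95, 1.33, 1.21 and 1.87 in WT and 1.61, 1.21, 1.26 and 1.22 in PKR2 hearts. The same 3 arrays were high, the PKR2 arrays other than PKR2 1 lay close together, and the groups overlapped. Its difference was -0.27 (SE 0.21, interval -0.73 to 0.20, unadjusted p = 0.233 in limma). Psmb10 (chromosome 8, 108824906 to 108824965, mm8) measured 4.67, 4.48, 4.58 and 5.03 in WT and 4.63, 4.58, 4.52 and 4.45 in PKR2 hearts, for a difference of -0.14 (SE 0.16, interval -0.50 to 0.22). WT 4 alone stood apart, and without it the Psmb10 difference was -0.03. The Psmb8 difference was also -0.03 without WT 4, and -0.03 without WT 1, while the Psmb9 difference was -0.17 and -0.14. Within slides the differences did not repeat. On slide 5 they were 0.29 for Psmb8, 0.06 for Psmb9 and -0.06 for Psmb10, and on slide 6, where WT 4 lay, they were -0.79, -0.65 and -0.58. With normexp Psmb9 (0.02) and Psmb10 (0.31) changed sign and Psmb8 did not.

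**Figure D2:**
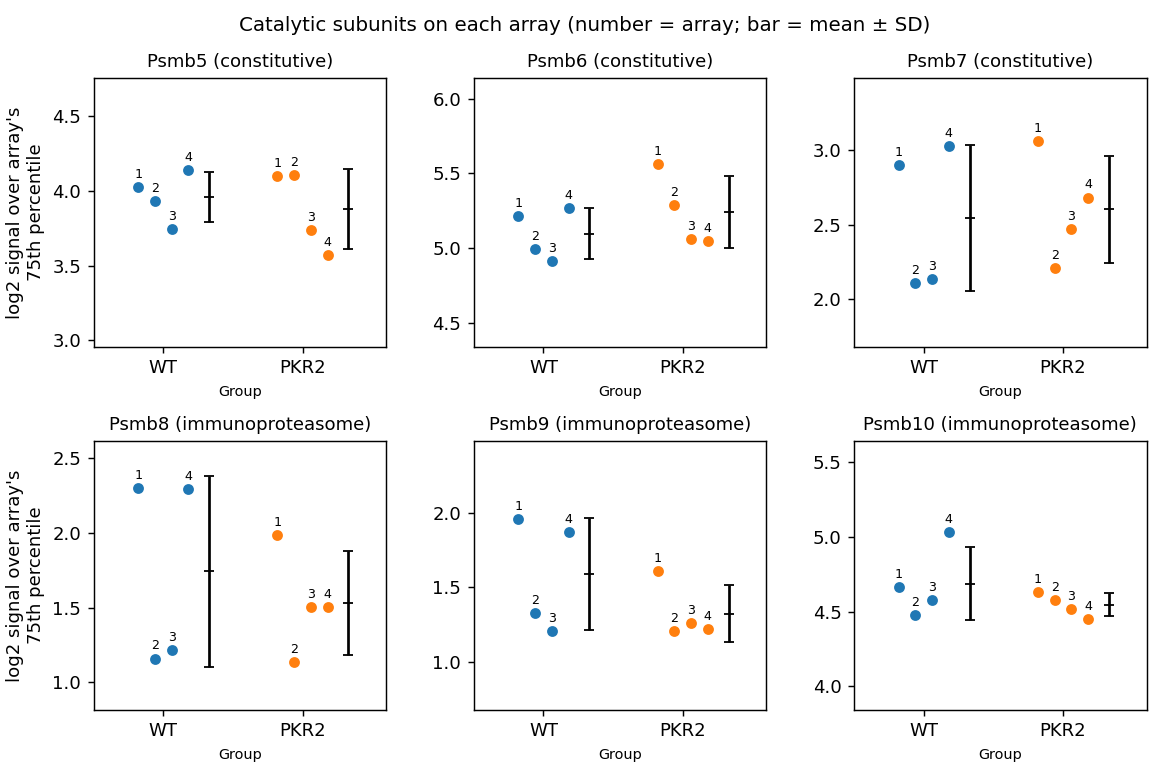
Log2 signal over the array's 75th percentile (y axis, the same span in every panel) of the standard catalytic genes (top) and the immunoproteasome genes that replace them (bottom), 1 point per array with its number, and mean ± SD for each group of 4. WT 1, WT 4 and PKR2 1 lie high for Psmb7, Psmb8 and Psmb9, and the groups overlap in all 6 panels.

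A ratio within an array does not depend on how arrays are scaled to each other, so each immunoproteasome gene was also set against the standard subunit whose place it takes. The ratios are log2 and centred on their mean over the 8 arrays. Psmb8 over Psmb5 was 0.56, -0.49, -0.25 and 0.44 in WT and 0.17, -0.69, 0.05 and 0.22 in PKR2 hearts, for a difference of -0.13, with overlap. Psmb9 over Psmb6 was 0.45, 0.05, 0.0026 and 0.31 in WT and -0.24, -0.37, -0.09 and -0.12 in PKR2 hearts, for a difference of -0.41. All 4 PKR2 arrays lay below all 4 WT arrays for this pair, while each of its genes alone overlapped. How often ratios of other gene pairs separate the groups was not computed. On the same 8 arrays the separation also held with normexp (-0.50), quantile normalization (-0.44) and the authors' deposited values (-0.38). With normexp after all arrays were brought to a common level the groups overlapped (-0.41). Psmb10 over Psmb7 was -0.28, 0.33, 0.40 and -0.04 in WT and -0.47, 0.33, 0.0050 and -0.27 in PKR2 hearts, for a difference of -0.20, with overlap. Averaged over the 3 pairs, the ratio was 0.12 ± 0.14 for WT arrays and -0.12 ± 0.11 for PKR2 arrays, which is a shift of -0.25. WT 1 and WT 4 were highest (each 0.24) and PKR2 2 lowest (-0.24), and WT 2 (-0.04) lay below PKR2 3 (-0.013), so the groups overlapped. On slide 5 the shift was -0.06 and on slide 6 -0.30. The ratios were not tested, since the pairs are few and belong to the genes chosen here. The shift kept its sign in every alternative in which it was computed, from -0.30 (without WT 2) to -0.18 (slide as a fixed block). Leukocyte markers, whose cells express the immunoproteasome constitutively, ran from -0.22 to 0.18 in WT and from -0.11 to 0.06 in PKR2 hearts over 16 of 18 genes, with WT 1 highest and WT 3 lowest. Cd79a was above background on 0 arrays and Flt3 on 2. The part of leukocytes and of the adipocyte difference in the shift was not tested, and in whole hearts fewer cells of a type and less RNA per cell cannot be told apart.

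The ATPase ring of the 19S cap unfolds substrates and opens the core. Of its 6 genes 3 were higher and 3 lower. Psmc5 had the largest difference and the smallest p of the 42 genes. It measured 3.34, 2.96, 3.19 and 3.83 in WT and 3.26, 2.93, 2.89 and 2.93 in PKR2 hearts, for a difference of -0.33 (SE 0.20, 1.26-fold, unadjusted p = 0.139 and adjusted p = 1 in limma). WT 4 was highest, and WT 2 and WT 3 lay within the range of the PKR2 arrays. Without WT 4 the difference was -0.16. The Psmc5 difference was -0.60 with slide as a fixed block (unadjusted p = 0.0410, adjusted p = 0.757 in limma) and -0.42 with slide as a random block (unadjusted p = 0.0388, adjusted p = 0.944). The other detected Psmc5 probe gave -0.06. Psmc4 was the steadiest of the 42 genes, with 3.29, 3.11, 3.14 and 3.24 in WT and 3.25, 3.23, 3.13 and 3.23 in PKR2 hearts, so it differed by 0.02 (SE 0.13). PKR2 3 lay lowest of its group by a small gap. The remaining ATPase genes differed by -0.10 (Psmc2), -0.08 (Psmc6), 0.07 (Psmc1) and 0.08 (Psmc3), and PKR2 1 was the highest array for Psmc1, Psmc2 and Psmc3.

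The 11 non-ATPase subunits of the 19S cap bind ubiquitin chains, cut them off and hold the cap together. All 11 lay below 0, with a median of -0.04, and 10 of the 11 lay above 0 with normexp. Psmd14, the deubiquitinase of the lid, was 3.46 ± 0.27 in WT and 3.41 ± 0.06 in PKR2 hearts, so it differed by -0.05 (SE 0.16). The scaffold genes Psmd1 and Psmd2 differed by -0.04 and -0.06, and the ubiquitin receptor gene Psmd4 by -0.04. Psmd8 measured 1.91, 2.34, 2.29 and 2.35 in WT and 2.28, 0.93, 2.40 and 2.39 in PKR2 hearts, so it differed by -0.23 (SE 0.32). PKR2 2 lay far below all other arrays, and without it the Psmd8 difference was 0.13. Psmd6 differed by -0.15, Psmd12 and Psmd14 by -0.05 each, Psmd13 by -0.04, and Psmd3, Psmd7 and Psmd11 by -0.02 each.

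The assembly factors of the cap leave before the particle is finished. Psmd10, which encodes gankyrin, measured 0.55, -0.0078, 0.37 and 0.73 in WT and 0.47, -0.08, 0.19 and 0.23 in PKR2 hearts, so it differed by -0.21 (SE 0.20). WT 4 and WT 1 were highest and PKR2 2 lowest, with overlap. Psmd5 (0.07, SE 0.13) and Psmd9 (0.11, SE 0.23) lay above 0.

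The PA28 subunits, which interferon induces along with the immunoproteasome, lay slightly below 0. Psme1 was 4.95 ± 0.15 in WT and 4.90 ± 0.30 in PKR2 hearts, so it differed by -0.05 (SE 0.18), and Psme2 was 5.57 ± 0.15 and 5.40 ± 0.22, so it differed by -0.17 (SE 0.16). Both lay above 0 with normexp (0.42 and 0.23). Psme3, the nuclear PA28 gamma, differed by -0.18 (SE 0.18), and Psme4, which encodes PA200, by 0.15 (SE 0.29), with PKR2 2 highest. The testis-specific alpha subunit gene Psma8 measured -1.56 ± 0.26 in WT and -1.67 ± 0.13 in PKR2 hearts, so it differed by -0.10 (SE 0.17).

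The genes also differed between arrays of a group. In 15 of the 42 genes (35.7%, against 23.1% of all features) WT 1 and PKR2 1 were each the lowest array of their group, among them Psma1, Psmb2, Psmb3, Psmc6, Psmd12 and Psme4. In another 8 (against 19.1% of all features) they were each the highest, among them Psmb8, Psmb9, Psmc1, Psmc3 and Psmd9. WT 4 was the highest WT array in 20 of the 42 genes (47.6%, against 26.9% of all features). On slide 6, PKR2 4 was below WT 4 in 40 of 42 genes, with a median of -0.30, where 55.6% of all features were lower and their median was -0.05. On slide 5, PKR2 3 was below WT 3 in 26 of 42 genes, with a median of -0.04, where 52.4% of all features were lower. Each of these slide contrasts rests on 1 mouse of each group. The 2 arrays of a slide also shared a scan range, extended on slide 5 and single on slide 6. For the spread within groups, the median residual SD was 0.27 in the 42 genes and 0.31 over all features, and 28 of the 42 lay under the median of all features.

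Genes that work with the proteasome gave no call either, with 0 past the adjusted threshold in each list below. Among the partners of the particle, 2 of 12 tested genes were higher and 10 lower (8 and 4 with normexp, 6 and 6 with normexp at a common level). Of these 12 only Adrm1 passed the unadjusted threshold, and no gene of the other lists below did, where 2.42% of all features passed. Adrm1 encodes a ubiquitin receptor of the cap that recruits Uchl5. It measured 2.45, 2.85, 2.84 and 2.93 in WT and 2.15, 2.47, 2.38 and 2.30 in PKR2 hearts, for a difference of -0.45 (SE 0.16, unadjusted p = 0.0195 and adjusted p = 1 in limma). WT 1 lay just below PKR2 2, and the other WT arrays lay above all PKR2 arrays. The Adrm1 difference was -0.46 on slide 5 and -0.63 on slide 6. In limma it did not pass the unadjusted threshold with normexp (-0.15, unadjusted p = 0.577), with normexp at a common level (-0.32, unadjusted p = 0.210), with the mean of its probes (-0.22, unadjusted p = 0.167) or without PKR2 1 (-0.39, unadjusted p = 0.0529). The adjusted p of Adrm1 in limma was 0.757 or more under each of the 17 alternatives in which single genes were recorded. Usp14, a deubiquitinase of the cap, differed by -0.22, and Psmg1, a chaperone of core assembly, by -0.17.

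Among the factors that control proteasome genes, 4 of 7 were higher and 3 lower (6 and 1 with normexp), with a median of 0.03. Nfe2l1 differed by 0.10 (SE 0.22), its deglycosylase gene Ngly1 by -0.13 and its protease gene Ddi2 by -0.10. Of 14 genes for ubiquitin and substrate delivery, 7 were higher and 7 lower (11 and 3 with normexp). The smallest p there belonged to Ufd1, a cofactor of the unfoldase VCP (-0.41, SE 0.21), followed by the shuttle factors Ubqln1 (-0.29) and Ubqln2 (-0.22). Of 8 ubiquitin ligases of muscle, 6 were higher and 2 lower (8 and 0 with normexp). Asb2 differed by 0.26, Fbxo32, the atrophy ligase atrogin-1, by 0.17 and Trim55 by -0.15, and WT 4 was the lowest array for all 3.

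The class I antigen processing genes, which handle the peptides that the immunoproteasome makes, gave 1 of 11 higher and 10 lower with PKR2, with a median of -0.20 and none past an unadjusted p of 0.05. With normexp the count was 8 higher and 3 lower, and with normexp at a common level 4 and 7. Averaged over the 11 genes, each relative to its own mean, the arrays read 0.17, 0.03, -0.05 and 0.25 in WT and -0.11, -0.10, -0.05 and -0.13 in PKR2 hearts. WT 4 and WT 1 were highest, and WT 3 (-0.046) and PKR2 3 (-0.055) were nearly level. B2m, the light chain of class I molecules, differed by -0.37, on slide 5 by 0.13 and on slide 6 by -0.82, and Irf1 differed by -0.20.

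**Figure D3:**
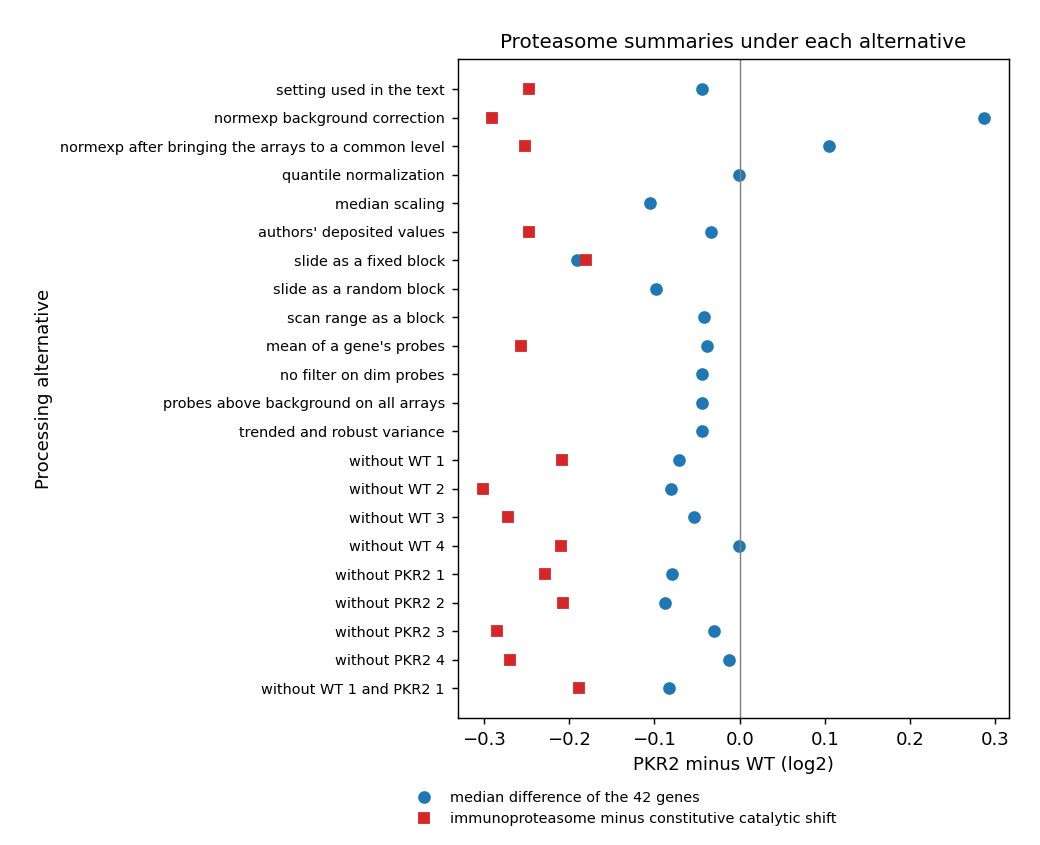
Median difference of the 42 genes (circles) and shift of the immunoproteasome genes against the standard catalytic genes (squares, where computed), both PKR2 minus WT in log2 (x axis), under each processing alternative (rows). The circles move from -0.19 with slide as a fixed block to 0.29 with normexp, and the squares stay between -0.30 and -0.18.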

How the data were processed

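Heart RNA was hybridised to 8 Agilent arrays in 1 colour, 4 of WT and 4 of PKR2 mice. Per the file headers, the deposited spot intensity values come from Agilent Feature Extraction 9.5.1.1, with background subtracted, spatial trends removed and outlying spots flagged, and probe positions are those of mouse build mm8. The authors' deposited value table holds linear intensity, rounded to whole numbers, with column medians of 139 to 144, and the normalization behind it is unknown. Over its bright probes (value over 2000) its log2 correlated with the scanner's median signal at 0.998 or more on every array, so it was read as linear and uncentred, and it served as an alternative.

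For the present results the processed signal of 43379 non-control spots was taken to log2, and each array's 75th percentile was subtracted. Outlier-flagged spots were left out and spots of 1 probe averaged. Probes entered the fit if 3 or more of the 4 arrays in either group showed them well above background, and 1 probe, the brightest, stood for a gene, giving 15660 features. Names came from RefSeq (GRCm38.p6). The fit used lmFit and eBayes of limma 3.58.1 (R 4.3.3) without a covariate, with Benjamini-Hochberg adjustment over all features and a threshold of 0.05. The fit was also run on simulated data, drawn independently for each gene and array without effects of slide or scan range. No result here rests on that run. The rule for named genes took every gene of the pattern, and of each list of related genes those past the threshold and the 3 of smallest p. Psmg4 and Nlrc5 had no probe matched by name. The value of 1 gene that this rule names is not reported here.

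The genes, the lists and the pairs were chosen with earlier results of these data known. Replicate numbers follow the order of the sample list and pair nothing. The numbers in the titles are those of slide and array position. The p-values weigh the group difference against the spread within groups, with 1 mouse on each array. That spread also holds differences of slide, scan range and signal, which cannot be separated from those between mice. The arrays lay on 6 slides, of which 2 held both groups. Alternatives were normexp (offset 50), quantile and median normalization, the authors' values, slide and scan range as blocks, other probe filters and variance models, the mean of a gene's probes and leaving out each array. Chosen after seeing the data were normexp with all arrays first scaled alike, leaving out WT 1 and PKR2 1 together, and the count of genes lower in PKR2 hearts.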

Additional observations from a re-analysis of the deposited data

Results flagged for a closer look

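In 84 groups of 4 arrays (42 genes in each group of mice), the highest or lowest array was set against the rest by Dixon's ratio, which chance passes in about 1 group in 20. It passed in 9 (10.7%). The 84 groups rest on the same arrays and are not independent, and the share over all features was not computed. The count is therefore not read as a trait of these genes. The largest gap was in Psmd8, a lid subunit gene of the 19S cap, where PKR2 2 measured 0.93 and the other PKR2 arrays 2.28 to 2.40. In the WT group Psmd8 was low on WT 1 (1.91, others 2.29 to 2.35). PKR2 1 stood high for Psmb9 (1.61, others 1.21 to 1.26), Psmc1 (4.49, others 3.95 to 3.99) and Psmc5 (3.26, others 2.89 to 2.93), and low for Psmd6 (3.17, others 3.28 to 3.30). PKR2 2 stood high for Psma7 (6.03, others 5.40 to 5.46). PKR2 3 stood low for Psmc4 (3.13, others 3.23 to 3.25), a gap of small absolute size. WT 1 stood low for Psmd12 (4.86, others 5.39 to 5.47). Of these 9 values, 4 were on PKR2 1 and 2 on WT 1.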

How the results depend on the processing

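No proteasome gene passed limma's adjusted p of 0.05 under any of the alternatives run, in which the smallest adjusted p of a member was 0.593. The count over all features was 1 with median scaling, with slide as a random block, with only probes above background on all arrays, with a trended and robust variance and with normexp at a common level, and 0 to 1 on leaving out each array, the 1 without PKR2 3 (0 of 15660 in the setting used). The median difference of the 42 genes was 0.29 with normexp, 0.11 with normexp at a common level and -0.19 with a fixed slide term (a fit that can draw on slides 5 and 6 alone), and -0.09 to -0.00046 on leaving out each array. Genes lower in PKR2 hearts numbered 5 with normexp, 9 with normexp at a common level and 21 to 32 on leaving out each array. With median scaling or slide as a block, more genes were lower than in the setting used. With normexp the median level of the 42 genes fell most on WT 2 (3.62 to 2.55), WT 1 (3.85 to 2.96) and PKR2 4 (3.46 to 2.87). That on PKR2 1 went from 4.05 to 3.97. With normexp at a common level it was 3.30 on WT 2, 2.89 on WT 1 and 3.22 on PKR2 4. The cause was not tested. The immunoproteasome shift was -0.30 to -0.21 on leaving out each array and moved by less than the spread between arrays (SD 0.12) elsewhere. Of 969 differences of 57 named genes under 17 alternatives, 160 had the opposite sign and none passed the threshold. With normexp the sign turned in Psma1 0.37, Psma2 0.15, Psma3 0.18, Psma5 0.36, Psma7 0.30, Psmb10 0.31, Psmb2 0.19, Psmb4 0.29, Psmb5 0.35, Psmb9 0.025, Psmc2 0.25, Psmc6 0.40, Psmd1 0.17, Psmd11 0.33, Psmd12 0.35, Psmd14 0.25, Psmd2 0.29, Psmd3 0.41, Psmd4 0.39, Psmd6 0.21, Psmd7 0.37, Psmd8 0.0045, Psme1 0.42, Psme2 0.23, Psme3 0.16, Psmg1 0.025, Ddi2 0.33, Trim55 0.038, B2m 0.023 and Irf1 0.16. With normexp at a common level the sign turned in Psma1 0.17, Psma3 0.011, Psma5 0.16, Psma7 0.099, Psmb10 0.11, Psmb2 0.055, Psmb4 0.088, Psmb5 0.16, Psmc2 0.055, Psmc6 0.21, Psmd1 0.034, Psmd11 0.14, Psmd12 0.15, Psmd14 0.071, Psmd2 0.092, Psmd3 0.21, Psmd4 0.21, Psmd6 0.024, Psmd7 0.20, Psme1 0.22, Psme2 0.025 and Ddi2 0.15. With quantile normalization the sign turned in Psma3 0.024, Psma5 0.033, Psmb2 0.024, Psmd11 0.0048, Psmd12 0.00092, Psmd14 0.00090, Psmd3 0.018, Psmd4 0.0076 and Psmd7 0.024. With median scaling the sign turned in Psma4 -0.049 and Psmc4 -0.042. With the authors' deposited values the sign turned in Psma1 0.00064, Psma5 0.011, Psmc4 -0.061, Psmc6 0.057, Psmd11 0.0020, Psmd3 0.020, Psmd4 0.038, Psmd7 0.049, Psmd9 -0.017, Psme1 0.046 and Ddi2 0.0063. With slide as a fixed block the sign turned in Psma4 -0.16, Psma6 -0.042, Psmb3 -0.16, Psmb6 -0.034, Psmb7 -0.0034, Psmc1 -0.053, Psmc3 -0.16, Psmc4 -0.0060, Psmd8 0.076, Psme3 0.076, Psme4 -0.076, Nfe2l1 -0.054 and Fbxo32 -0.081. With slide as a random block the sign turned in Psma4 -0.046 and Psmc3 -0.0044. With scan range as a block the sign turned in Psma5 0.00026 and Psmb2 0.081. With the mean of a gene's probes the sign turned in Psmd14 0.0055, Psmd2 0.11, Ddi2 0.032 and Ubqln1 0.064. Leaving out each array in turn gave a range across 0 in Fbxo32 -0.049 to 0.37, Nfe2l1 -0.051 to 0.20, Ngly1 -0.23 to 0.011, Psma1 -0.30 to 0.072, Psma3 -0.082 to 0.042, Psma4 -0.11 to 0.20, Psma5 -0.16 to 0.076, Psmb2 -0.20 to 0.18, Psmb3 -0.16 to 0.38, Psmb5 -0.16 to 0.021, Psmb7 -0.088 to 0.22, Psmc1 -0.059 to 0.17, Psmc2 -0.23 to 0.011, Psmc3 -0.089 to 0.16, Psmc4 -0.0098 to 0.053, Psmc6 -0.27 to 0.080, Psmd1 -0.13 to 0.051, Psmd11 -0.10 to 0.036, Psmd12 -0.20 to 0.072, Psmd13 -0.26 to 0.14, Psmd14 -0.14 to 0.069, Psmd2 -0.21 to 0.15, Psmd3 -0.098 to 0.052, Psmd4 -0.16 to 0.049, Psmd7 -0.096 to 0.039, Psmd8 -0.36 to 0.13, Psmd9 -0.050 to 0.27, Psme1 -0.15 to 0.054, Psme4 -0.079 to 0.29 and Trim55 -0.35 to 0.060. The title numbers shared between groups are those of slides 5 and 6, so the fixed slide term is also the replicate block for those 2 pairs, and the other 4 arrays had no partner. It changed no call at the adjusted threshold. At an unadjusted p under 0.05 Psma6 passed with the authors' values and Psmc5 with slide as a fixed or random block. None of the 42 genes did in any other setting. With 4 arrays a group the median half-width of an interval was 0.44 in the 42 genes. In a typical member a smaller difference could therefore not be told from 0 even without adjustment. The adjusted threshold asks for more: Adrm1 at -0.45 and the adipocyte marker Ucp1 at -2.64 did not pass it. Arrays with low signal limit the dim probes most. Psmb8, Psmc5, Psmd5, Psmd10, Psma8 and Psmb1 kept their sign under all 17 alternatives.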

Other observations

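The genes with several detected probes allow a look at how far 1 difference depends on the probe. Of 13 such genes, 8 had differences of the same sign on all their probes and 5 did not. The spread was widest in Psmd2, a scaffold gene of the cap, whose probes gave -0.06 and 0.28. It was also wide in Psmd7, the lid partner of the deubiquitinase Psmd14 (-0.24 to 0.08 over 3 probes, 1 of which carries another transcript record), and in Psmc5 (-0.33 and -0.06). Probes agreed closely for Psme2 (-0.18 and -0.17) and Psmb8 (-0.27 and -0.21). The differences of 2 probes of a gene rest on the same 8 RNA samples and are not replicates.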
